A study of Sus scrofa with 12 samples.

Results

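The genes described here are those of glycolysis, lactate formation, the entry of pyruvate into the mitochondrion and the response to low oxygen. The rule named 40 genes by symbol, of which 35 were found among the 19681 Ensembl pig genes of the tables. SLC2A1, SLC2A3, SLC16A1, BNIP3 and CA9 had no matching symbol and are not analysed here. Expression was given as FPKM (fragment counts corrected for transcript length and library size) in 12 libraries, with 3 biological replicates (A, B and C) in each of 4 groups. IEC2, IEC4 and IEC12 were unsorted cultures made from porcine iPS cells and taken on day 2, 4 or 12 of induction towards endothelium, and AOC was a porcine endothelial cell line. Cells from before induction are not among the 12 libraries, so the induction is followed here from day 2 to day 12 only. All IEC cultures began in a medium lacking FGF2 and LIF with the GSK3 inhibitor CHIR99021. From day 2 the cultures taken later received BMP4, FGF2 and VEGF, and from day 4 those taken on day 12 received EGM-2 with VEGF, so that stage and medium changed together and cannot be told apart. AOC is a single line in its own culture, and its difference from the IEC cultures includes that of line and medium.

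In glycolysis, a preparatory phase spends ATP to split glucose into triose phosphates, and a payoff phase turns these into pyruvate with a gain of ATP and NADH. Lactate dehydrogenase regenerates NAD+ by reducing pyruvate to lactate, whereas pyruvate dehydrogenase feeds pyruvate into the mitochondrion and is switched off by its kinases (PDKs). When oxygen is short, prolyl hydroxylases of the EGLN family stop marking the HIF alpha subunits for destruction, and HIF raises the transcription of many genes of glycolysis. Pluripotent stem cells are known for a high rate of glycolysis, and endothelial cells also draw much of their ATP from it.

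The FPKM of a library summed to between 335976 and 457194, and the number of reads behind these values is unknown. The 12 mitochondrial genes took 1.95 to 2.19% of this sum in IEC2, 4.28 to 7.10% in IEC4, 5.65 to 7.05% in AOC, and 15.01, 9.78 and 7.77% in replicates A, B and C of IEC12. Of 12 endothelial markers, 9 were found, and their summed FPKM was 293 to 417 in AOC but 0.130 to 0.284 in IEC12, 1.17 to 1.57 in IEC4 and 2.92 to 5.14 in IEC2. CDH5 was listed at 0 in all 9 IEC libraries, and PECAM1, which encodes CD31, did not exceed 0.105 FPKM in IEC12. AOC thus expressed the markers of its label, whereas the RNA of the IEC12 cultures as a whole had them near 0. By the test given below, 8 of these markers were compared between AOC and IEC2, and 7 were higher in AOC and 1 lower. KDR was at 2.42 to 3.99 FPKM in IEC2 and 1.31 to 1.46 in AOC. The paper reports that cells positive for the CD31 protein were present and sorted by flow cytometry at the end of this induction. How the low RNA values relate to those cells was not tested. Of 7 epithelial markers, 6 were found, and their sum was 519 to 1434 in IEC4, against 108 to 144 in IEC2, 41.8 to 86.6 in IEC12 and 2.25 to 4.08 in AOC. The 8 markers of mural cells and fibroblasts summed to 80.2 to 112 FPKM in IEC2, 50.0 to 63.3 in IEC4, 61.4 to 79.5 in IEC12 and 22.9 to 36.3 in AOC, and the 4 cell cycle genes found to 113 to 120, 76.7 to 84.9, 198 to 215 and 168 to 208. The 6 haematopoietic markers summed to at most 12.0 FPKM in the IEC groups and 39.97 in AOC, and the markers found of pluripotent cells (2 of 9), mesendoderm (5 of 6) and cardiomyocytes (5 of 6) to at most 6.39, 1.28 and 1.16 in any library. The sum of the 2 pluripotent markers was 3.30 to 6.39 in IEC4 and 0.248 to 1.52 in IEC12. It was at most 0.155 in IEC2 and 0.0462 in AOC. The part of these other cell types in the results was not tested.

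Adjusted p-values are those of limma on log2(FPKM + 1), after Benjamini-Hochberg adjustment over all genes tested (10542 genes for the 9 IEC libraries, 11053 genes once AOC was included), with a call at an adjusted p under 0.05. On this scale, fold changes of weakly expressed genes come out too small. Of the 35 genes found, 31 reached 1 FPKM in 3 or more IEC libraries and were tested. TPI1, SLC16A3, PDK2 and PDK4 did not.

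The first question was whether the pathway fell together over the induction. As a whole, the enzymes of glycolysis held a smaller share of the transcripts at each later stage. The 15 glycolytic enzyme genes and the lactate dehydrogenases LDHA and LDHB together made up 5.22, 4.91 and 4.77% of the summed FPKM in replicates A, B and C of IEC2. Their share was 3.08, 2.73 and 2.31% in IEC4 and 1.11, 1.42 and 1.69% in IEC12. In AOC it was 0.831, 0.769 and 0.704%. The 4 groups did not overlap in this share and lay in the descending order IEC2, IEC4, IEC12 and AOC. In bulk samples, fewer cells that use a gene and less of its RNA in each cell cannot be told apart.

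**Figure D1:**
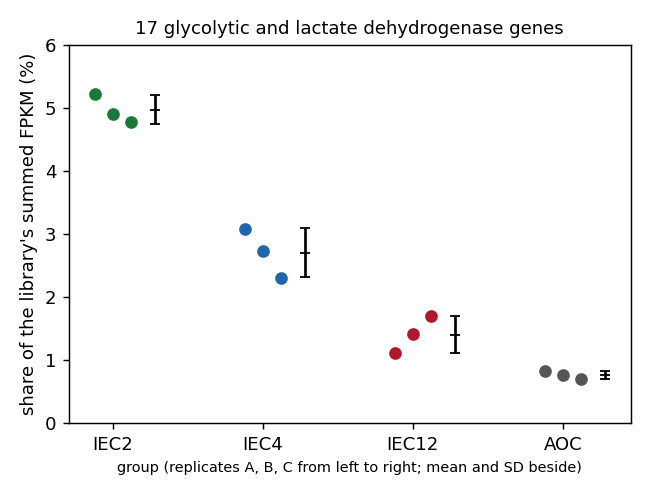
Share of each library's summed FPKM (y axis, %) taken by 15 glycolytic enzyme genes with LDHA and LDHB, for the groups IEC2, IEC4, IEC12 and AOC (x axis); points are replicates and the bar beside them is mean and SD (n = 3). The groups do not overlap, from 4.77 to 5.22% in IEC2 down to 0.704 to 0.831% in AOC.

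From IEC2 to IEC4, 10 of the 31 tested genes fell and 7 rose, while 14 were not called. Over all genes tested, 12.5% were called lower and 24.8% higher in this step. In the payoff phase 4 of 6 genes fell and none rose, and in oxygen sensing 3 of 4 rose and none fell. The median log2 fold change was -0.26 over the 31 genes and 0.20 over all genes. After median-of-ratios scaling, which sets the typical gene equal between libraries, 12 genes were lower and 5 higher, with medians of -0.51 over these genes and -0.01 over all genes, and 49.6% of all calls were towards higher values, against 66.5% in the main analysis. The number of genes that fell was 3, 2 and 6 without IEC2 replicate A, B or C, and 6, 4 and 4 without IEC4 replicate A, B or C. The count in this step was thus under 10 whichever of these libraries was left out. Over all genes, 908 to 1211 were called lower in these fits, against 1318 in the main analysis. Without IEC4 replicate A, 4 genes were higher. Without the filter on low values, the first-step calls of ALDOA, ALDOC, PGK1, ENO1, ENO2, LDHA and PDHA1 were lost (adjusted p from 0.0544 to 0.125).

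From IEC4 to IEC12, 19 of 31 genes fell and 3 rose, against 26.9% of all genes called lower and 17.3% called higher. All 14 tested enzymes from hexokinase to pyruvate kinase were among those that fell, with log2 fold changes from -2.88 to -0.68. The calls of PFKM, PFKP, PGK1 and PKM did not hold in every alternative fit, as given below. The median log2 fold change was -1.12 over the 31 genes and -0.15 over all genes. With libraries scaled to equal totals, 23 genes were lower and 2 higher, the medians were -1.32 and -0.32, and 25.6% of all calls were towards higher values, against 39.2% in the main analysis and 52.2% after median-of-ratios scaling, where 18 genes were lower and 3 higher and the medians were -0.89 and 0.04. Leaving out any 1 library gave 16 to 22 lower genes.

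Over both steps, from IEC2 to IEC12, 20 genes fell and 3 rose, against 19.3% and 24.2% of all genes. Of the 14 enzymes, 12 fell and HK2 and PFKM were not called (HK2 was with equal totals, at an adjusted p of 0.0424, and PFKM without IEC12 replicate C, at 0.0484). Among the calls outside the enzymes, that of ANKRD37 was lost without IEC12 replicate A, B or C (0.0733, 0.0681 and 0.0852) and that of BNIP3L with equal totals (0.429) and without IEC2 replicate C or IEC12 replicate C (0.0693 and 0.0616). The median log2 fold change was -1.14 over the 31 genes and 0.03 over all genes. With equal totals, 36.5% of all calls were towards higher values, against 55.7%, and 23 genes were lower and 2 higher, with medians of -1.42 and -0.18. The IEC4 libraries enter both steps, so that the steps are not independent of each other. Lower calls in both steps were given to ALDOA, ALDOC, GAPDH, PGK1, ENO1 and ENO2, which is 19.4% of the 31 genes, against 1.51% of all genes tested. Of these, GAPDH alone kept both calls in every alternative fit. The others lost that of the first step without the filter and when certain single libraries were left out. The share over all genes was not counted again in those fits. HK2, HIF1A, EPAS1 and NDRG1 were called higher in the first step and lower in the second. Their share of 12.9% was near the 11.3% of all genes with that course. The mean FPKM was highest at IEC2 for 16 of the 31 genes, at IEC4 for 12, and at IEC12 for LDHB, PDHB and EGLN1 alone. The stage of the highest mean was not counted over all genes, so these counts do not show what is particular to the set. Between IEC4 and IEC12, then, the 14 tested glycolytic enzymes of this set were all called lower in the main analysis. LDHA and PDHA1 were not called, and LDHB and PDHB rose.

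Stricter limits were applied next. Requiring also an absolute log2 fold change of at least 1 left 1 gene higher and 5 lower in IEC4 against IEC2 (18.3% of all genes called in either direction), 0 and 17 in IEC12 against IEC4 (22.6%), and 1 and 18 in IEC12 against IEC2 (21.4%). For AOC it left 3 higher and 21 lower against IEC2 (39.0%) and 5 and 8 against IEC12 (32.6%). The study compared iPS cells with AOC, in its own analysis, under p and q below 0.001 with a change beyond 3 on the log2 scale. These thresholds were applied here to other comparisons and to the limma values, with the adjusted p as q. Under them, 0 genes were called in IEC4 against IEC2 (1.18% of all genes), 2 in IEC12 against IEC4 (0.939%), 4 in IEC12 against IEC2 (1.22%), 3 in AOC against IEC2 (5.47%) and 1 in AOC against IEC12 (4.41%), each of them lower. These were EPAS1 and NDRG1 from IEC4 to IEC12, ALDOA, ALDOC, ENO2 and EPAS1 from IEC2 to IEC12, ALDOA, ENO2 and EGLN3 between IEC2 and AOC, and EGLN3 between IEC12 and AOC.

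Of the 9 genes of the preparatory phase, 8 were tested, and all 8 fell from IEC4 to IEC12. The hexokinases, which trap glucose in the cell by phosphorylation, took different courses. HK1, the isoform of most tissues, was at 44.7, 67.4 and 88.7 FPKM in IEC2 (replicates A, B and C, in this order throughout), 53.5, 57.7 and 44.3 in IEC4, 7.06, 10.2 and 17.6 in IEC12 and 43.3, 37.8 and 30.8 in AOC. The IEC12 libraries lay below all others, and IEC2 and IEC4 overlapped. From IEC4 to IEC12, HK1 fell by 2.14 on the log2 scale (SE 0.32, adjusted p = 0.00073). HK2, the inducible hexokinase that HIF raises, was at 9.96, 10.7 and 10.9 FPKM in IEC2, 23.1, 19.6 and 14.8 in IEC4, 10.4, 7.63 and 6.56 in IEC12 and 1.72, 1.94 and 2.11 in AOC. It was highest in all 3 IEC4 libraries and lowest in AOC, and IEC12 and IEC2 overlapped. The rise from IEC2 to IEC4 was 0.79 (SE 0.20, adjusted p = 0.0137, and 0.0971 after median-of-ratios scaling or 0.0559 without IEC4 replicate A), and the following change was -1.13 (SE 0.20, adjusted p = 0.00201). HK2 thus made up 14.3 ± 3.66% (SD, n = 3) of the summed FPKM of both hexokinases in IEC2, 26.8 ± 2.90% in IEC4, 43.2 ± 16.2% in IEC12 and 5.04 ± 1.32% in AOC.

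GPI, which turns glucose 6-phosphate into fructose 6-phosphate, was at 365, 320.1 and 392 FPKM in IEC2, 224, 233 and 213 in IEC4, 49.0, 109 and 137 in IEC12 and 94.9, 90.8 and 63.2 in AOC. The 3 stages did not overlap, although the first step was not called (adjusted p = 0.11). It was called after median-of-ratios scaling (0.0199), with only IEC2 and IEC4 in the fit (0.00272) and without IEC12 replicate A (0.00222). The second step was -1.30 (SE 0.31, adjusted p = 0.00791), and -0.86 without IEC12 replicate A. Phosphofructokinase, the enzyme of the committed step, is a tetramer of PFKL, PFKM and PFKP subunits. PFKL was at 59.5, 94.1 and 96.0 FPKM in IEC2, 114, 94.7 and 72.8 in IEC4, 5.08, 19.6 and 39.4 in IEC12 and 15.1, 11.4 and 5.75 in AOC. PFKM was at 12.0, 17.3 and 20.5 FPKM in IEC2, 25.8, 31.7 and 20.2 in IEC4, 5.79, 11.7 and 15.8 in IEC12 and 2.96, 3.08 and 1.54 in AOC. PFKP was at 26.3, 56.8 and 70.8 FPKM in IEC2, 43.1, 48.7 and 28.2 in IEC4, 1.77, 12.0 and 24.3 in IEC12 and 9.27, 7.31 and 3.89 in AOC. In all 3 genes the IEC12 values lay below those of IEC4, and replicate A was the lowest of IEC12. From IEC4 to IEC12 the log2 fold change was -2.44 for PFKL (SE 0.56, adjusted p = 0.00651), -1.23 for PFKM (SE 0.33, adjusted p = 0.014) and -2.04 for PFKP (SE 0.69, adjusted p = 0.0367). The mean of IEC12 replicates B and C was 10.3 times the value of replicate A for PFKP. Without that library its change was -1.14 (adjusted p = 0.0594), and the call was also lost without IEC12 replicate B (0.0573), without IEC2 replicate B (0.0511) and without IEC4 replicate A, B or C (0.0942, 0.103 and 0.0545). The call was lost as well with no filter (0.0859) and with only IEC4 and IEC12 in the fit (0.0594). From IEC2 to IEC12 PFKP changed by -2.32, or -1.41 without IEC12 replicate A, and this call (adjusted p = 0.0221) was lost with no filter (0.0616) and without IEC2 replicate B or C (0.0679 and 0.0795). PFKM lost its call without IEC4 replicate B (adjusted p = 0.0561).

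The aldolases, which cleave fructose 1,6-bisphosphate, fell in both steps. ALDOA, the main isoform here, was at 1519, 1418 and 1271 FPKM in IEC2, 740.2, 577 and 643 in IEC4, 76.5, 154 and 224 in IEC12 and 152, 126 and 101 in AOC. The 3 stages did not overlap, and the AOC libraries lay within the range of IEC12. The log2 fold change was -1.10 in the first step (SE 0.31, adjusted p = 0.0211) and -2.23 in the second (SE 0.31, adjusted p = 0.0006). ALDOC, known from the brain, was at 54.7, 46.9 and 42.3 FPKM in IEC2, 29.4, 24.3 and 20.6 in IEC4, 1.51, 3.34 and 5.30 in IEC12 and 8.68, 8.23 and 5.55 in AOC. Its stages did not overlap either, and AOC lay above IEC12. From IEC2 to IEC12 ALDOA fell by 3.33 (SE 0.31, adjusted p = 4.01e-05) and ALDOC by 3.57 (SE 0.30, adjusted p = 1.87e-05) on the log2 scale. The first step is less firm, since ALDOA lost its call without IEC2 replicate A or B or IEC4 replicate B or C (adjusted p from 0.0549 to 0.0727). ALDOC, with an adjusted p of 0.0335 there, lost its call without any of IEC2 A, B and C and IEC4 B and C (0.0551 to 0.106), and with a pseudocount of 0.1 (0.074). TPI1, the triose phosphate isomerase that no other gene replaces, was listed at 0 to 0.212 FPKM over the 12 libraries, and its level could not be followed. Processed pseudogenes of TPI1, GAPDH, PGAM1 and LDHA can share reads with these genes, which leaves their levels uncertain.

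PFKFB3 and PFKFB4 set the level of fructose 2,6-bisphosphate, the activator of phosphofructokinase. PFKFB3 was at 1.08, 3.24 and 2.44 FPKM in IEC2, 2.82, 3.40 and 1.90 in IEC4, 0.238, 0.519 and 0.621 in IEC12 and 0.355, 0.276 and 0.239 in AOC. It was low throughout and lay under 1 FPKM in every IEC12 and AOC library, below all libraries of IEC2 and IEC4. Its fall from IEC4 to IEC12 was called (-1.33, SE 0.28, adjusted p = 0.00441). PFKFB4 lay between 0.708 and 2.10 FPKM and was called in no comparison, with adjusted p from 0.146 to 0.864, although it was called lower in IEC12 than in IEC4, and higher in AOC than in IEC12, without IEC12 replicate C (0.0343 and 0.0455).

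**Figure D2:**
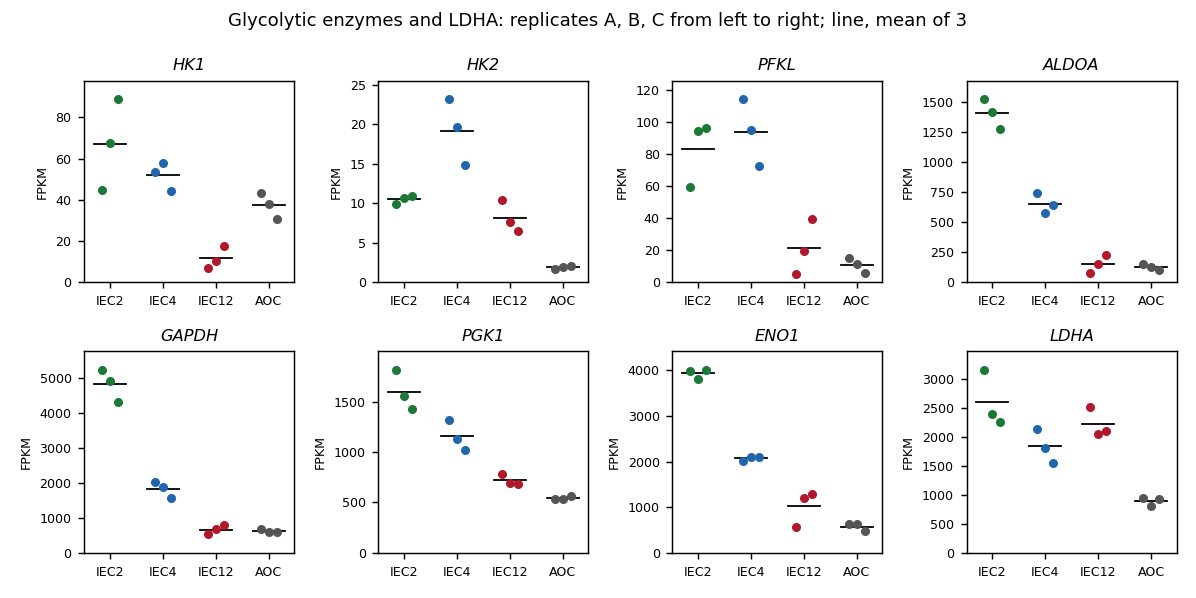
FPKM (y axis, linear from 0) of HK1, HK2, PFKL, ALDOA, GAPDH, PGK1, ENO1 and LDHA in each library of IEC2, IEC4, IEC12 and AOC (x axis); points are replicates A, B and C from left to right and the line is their mean. GAPDH falls from 4334 to 5246 in IEC2 to 534 to 796 in IEC12, whereas LDHA overlaps between IEC2 and IEC12.

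All 6 genes of the payoff phase fell from IEC4 to IEC12, and all 6 fell from IEC2 to IEC12. GAPDH, which oxidizes glyceraldehyde 3-phosphate and often serves as the reference gene of RT-qPCR, was at 5246, 4935 and 4334 FPKM in IEC2, 2022, 1877 and 1562 in IEC4, 534, 674 and 796 in IEC12 and 694, 608 and 596 in AOC. The 3 stages did not overlap, and AOC lay within the range of IEC12. Its log2 fold change was -1.41 in the first step (SE 0.17, adjusted p = 0.000222) and -1.46 in the second (SE 0.17, adjusted p = 0.000217), and the mean FPKM was 7.24 times as high in IEC2 as in IEC12. GAPDH ranked between 3 and 6 among all genes by FPKM in the IEC2 libraries, between 7 and 18 in IEC4, between 49 and 90 in IEC12 and between 79 and 97 in AOC. Its gene lies at chr5:64129678-64135194 in the RefSeq annotation of Sscrofa11.1.

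PGK1, whose enzyme makes the first ATP of this phase, was at 1816, 1556 and 1426 FPKM in IEC2, 1320.1, 1132 and 1022 in IEC4, 786, 696 and 681 in IEC12 and 535, 529 and 568 in AOC. The groups did not overlap, and its change from IEC4 to IEC12 was the smallest of the 14 enzymes, at -0.68 (SE 0.14, adjusted p = 0.00422, and 0.124 after median-of-ratios scaling). Its call in the first step (adjusted p = 0.0268) was lost without IEC2 replicate A or B or IEC4 replicate B or C (0.0642 to 0.0856). PGAM1, the phosphoglycerate mutase, was at 1334, 1095 and 1074 FPKM in IEC2, 1143, 956 and 868 in IEC4, 379, 542 and 712 in IEC12 and 194, 202 and 166 in AOC. Here IEC2 and IEC4 overlapped, IEC12 lay below both and AOC below IEC12, and the change from IEC4 to IEC12 was -0.90 (SE 0.22, adjusted p = 0.00875).

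Enolase makes phosphoenolpyruvate. ENO1, the form found in most tissues, was at 3984, 3822 and 4014 FPKM in IEC2, 2019, 2096 and 2108 in IEC4, 559, 1209.5 and 1283 in IEC12 and 633, 622 and 477 in AOC. ENO2, known as neuron-specific enolase, was at 76.4, 97.6 and 108 FPKM in IEC2, 49.0, 50.1 and 37.2 in IEC4 and 2.38, 6.33 and 8.93 in IEC12, and was listed at 0 in all 3 AOC libraries. In both genes the 3 stages did not overlap. ENO2 fell further than any other enzyme over the induction, by 3.91 on the log2 scale (SE 0.34, adjusted p = 2.59e-05), against 2.04 for ENO1 (SE 0.27, adjusted p = 0.000277). The first step of ENO1 (adjusted p = 0.0224) was no longer called when any 1 of the 6 libraries compared was left out (0.0529 to 0.0642), nor was that of ENO2 (0.0389, and then 0.0555 to 0.116, with 0.0516 without IEC12 replicate B and 0.0706 with a pseudocount of 0.1). From IEC4 to IEC12 ENO1 was -1.12 (SE 0.27, adjusted p = 0.00828), or -0.73 without IEC12 replicate A. PKM, the pyruvate kinase of most tissues outside the liver, was at 707, 799 and 814 FPKM in IEC2, 759, 665 and 526 in IEC4, 126, 312 and 497 in IEC12 and 242, 208 and 139 in AOC. IEC2 and IEC4 overlapped, IEC12 lay below both, and the change from IEC4 was -1.25 (SE 0.40, adjusted p = 0.0292), with no call without IEC4 replicate A or B (0.0913 and 0.0762) or IEC12 replicate B (0.0518), with no filter (0.0715) or with only IEC4 and IEC12 in the fit (0.0622). Without IEC12 replicate A the change of PKM was -0.70 from IEC4 and -0.97 from IEC2, against -1.51 with it. The tables do not separate the PKM1 and PKM2 splice forms.

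LDHA, the subunit of lactate dehydrogenase that favours the making of lactate, did not take the course of the enzymes before it. It was at 3157, 2395 and 2264 FPKM in IEC2, 2141, 1808 and 1556 in IEC4, 2523, 2057 and 2099 in IEC12 and 939, 816 and 936 in AOC. IEC4 lay below IEC2, IEC12 overlapped with both, and AOC lay below every IEC library. From IEC2 to IEC4 it was -0.50 (SE 0.17, adjusted p = 0.0444), a call that was lost without IEC2 replicate A or B or IEC4 replicate B or C (0.0728 to 0.134), also without IEC12 replicate B or C (0.067 and 0.0537), with only IEC2 and IEC4 in the fit (0.0585) and without the variance trend (0.0633). From IEC4 to IEC12 it was 0.29 (SE 0.17, adjusted p = 0.203) and from IEC2 to IEC12 -0.22 (SE 0.17, adjusted p = 0.335, and 0.0353 with equal totals). Of the summed FPKM of the 17 genes, LDHA made up 15.2 ± 1.69% (SD, n = 3) in IEC2, 18.8 ± 1.10% in IEC4, 38.9 ± 9.37% in IEC12 and 27.1 ± 2.71% in AOC. GAPDH held 28.3 ± 1.23%, 18.7 ± 0.776%, 11.4 ± 0.828% and 19.0 ± 0.455% of the same sum.

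LDHB, the subunit that favours the use of lactate, was far lower, at 18.5, 17.5 and 12.8 FPKM in IEC2, 14.8, 11.2 and 12.4 in IEC4, 24.1, 20.4 and 19.9 in IEC12 and 11.4, 9.39 and 12.4 in AOC. IEC12 lay above the other groups, and it rose from IEC4 to IEC12 (0.71, SE 0.18, adjusted p = 0.0103). LDHA was between 98.7 and 99.4% of the summed FPKM of both subunits in every library. SLC16A3, the exporter of lactate MCT4, did not exceed 0.922 FPKM in any library.

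**Figure D3:**
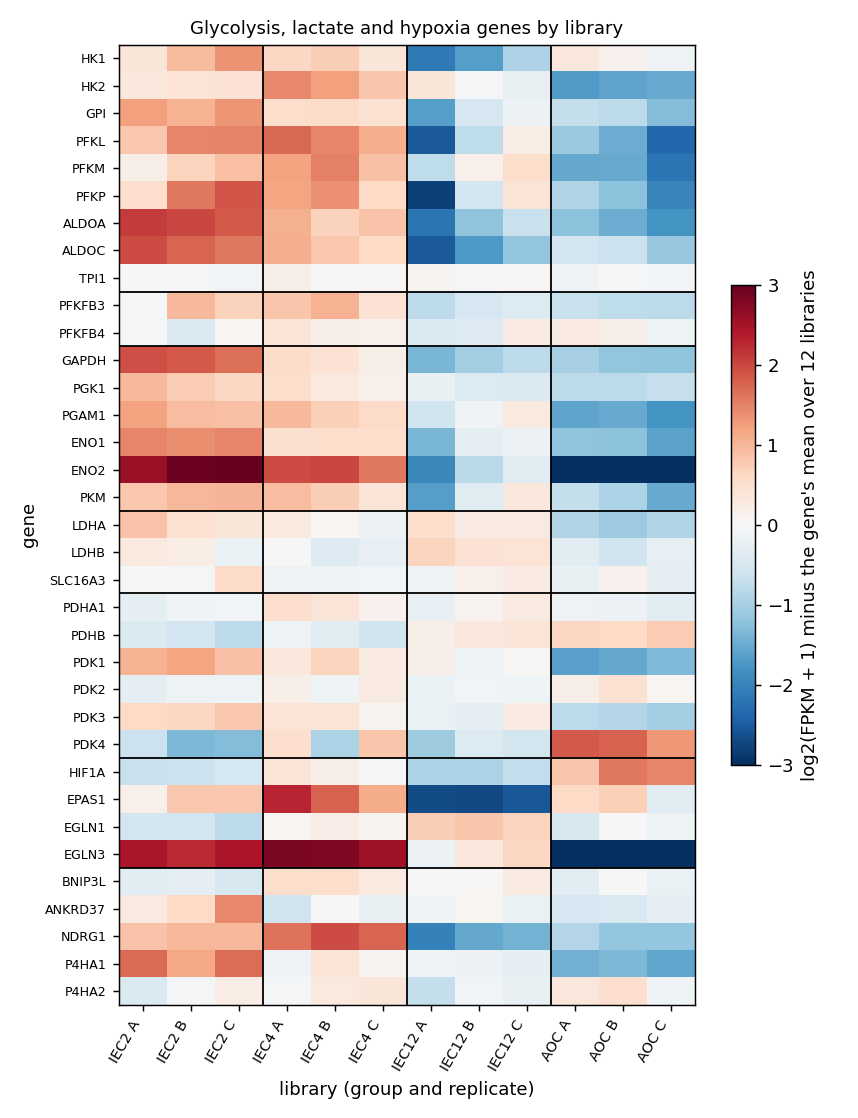
Log2(FPKM + 1) minus the mean over 12 libraries (colour, red above and blue below the mean, saturated at 3 and -3) for the 35 genes found (y axis, in blocks by role) in each library (x axis). Most glycolytic enzymes are red in IEC2 and IEC4 and pale or blue in IEC12 and AOC, and replicate A has the lowest value of the IEC12 libraries in 21 of the 31 tested genes.

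PDHA1 and PDHB encode the subunits of the first component of pyruvate dehydrogenase, the gate of the mitochondrion for pyruvate. PDHB lay between 56.9 and 73.3 FPKM in IEC2, 65.3 and 89.6 in IEC4, 112 and 131 in IEC12, and 151 and 169 in AOC. It rose from IEC4 to IEC12 (0.66, SE 0.15, adjusted p = 0.0068, and 0.0718 with equal totals) and from IEC2 to IEC12 (0.89, SE 0.15, adjusted p = 0.00119). PDHA1 lay between 22.4 and 40.4 FPKM over all libraries. It was called higher in IEC4 than in IEC2 (adjusted p = 0.0439), but not after any scaling of the libraries (0.0841 to 0.229), nor without IEC2 replicate A, B or C, IEC4 replicate A or B or IEC12 replicate B (0.068 to 0.14), nor without the variance trend (0.0574).

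The kinases PDK1 to PDK4 inactivate the complex, and PDK1 is a known HIF target. PDK1 was at 25.5, 28.3 and 22.6 FPKM in IEC2, 15.2, 19.3 and 14.6 in IEC4, 13.5, 10.7 and 12.1 in IEC12 and 3.14, 3.44 and 4.15 in AOC. The groups did not overlap, and the levels lay in the descending order IEC2, IEC4, IEC12 and AOC. The change was -0.61 in the first step (SE 0.16, adjusted p = 0.0145, and 0.0586 without IEC2 replicate B or 0.0509 without IEC4 replicate A). It was -0.40 in the second (SE 0.16, adjusted p = 0.067, and 0.0192 with equal totals or 0.0497 without IEC12 replicate A), and -1.01 over both (SE 0.16, adjusted p = 0.000842). PDK3 fell from 16.8 to 19.6 FPKM in IEC2 to 8.74 to 12.8 in IEC12 (-0.76, SE 0.18, adjusted p = 0.00687). PDK2 stayed at or below 0.722 FPKM in every library. PDK4, the kinase linked to the use of fatty acids, was at 8.18, 7.74 and 5.31 FPKM in AOC and at or below 3.56 in every IEC library. It made up 42.7 ± 5.34% (SD, n = 3) of the summed FPKM of the 4 kinases in AOC, where PDK1 held 22.1 ± 5.71%, against 58.3 ± 4.50% for PDK1 in IEC2.

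The HIF alpha subunits and the hydroxylases that control them did not move as 1 group. HIF1A was at 29.2, 29.9 and 32.4 FPKM in IEC2, 61.7, 53.4 and 47.5 in IEC4, 23.7, 24.0 and 27.9 in IEC12 and 84.2, 143 and 131 in AOC. IEC4 lay above IEC2 and IEC12, and AOC above all IEC libraries. It rose from IEC2 to IEC4 (0.80, SE 0.14, adjusted p = 0.00167) and fell again to IEC12 (-1.07, SE 0.14, adjusted p = 0.000355). HIF is controlled mostly at the level of protein, which was not measured. EPAS1, the gene of HIF-2 alpha and known for its high level in endothelium, was at 6.47, 10.8 and 10.6 FPKM in IEC2, 31.7, 21.9 and 13.5 in IEC4, 0.0396, 0.0229 and 0.152 in IEC12 and 9.14, 9.89 and 4.32 in AOC. It was highest in IEC4 and close to 0 in all 3 IEC12 libraries, below every library of the other groups. The rise to IEC4 was 1.13 (SE 0.30, adjusted p = 0.0144, and 0.0555 without IEC2 replicate A or 0.0523 without IEC4 replicate A). The fall to IEC12 was -4.37 (SE 0.30, adjusted p = 1.26e-05), the largest of the 31 genes in that step. EPAS1 thus made up 23.1 ± 4.40% (SD, n = 3) of the summed FPKM of both alpha subunits in IEC2, 28.4 ± 5.95% in IEC4, 0.268 ± 0.240% in IEC12 and 6.49 ± 3.30% in AOC. The gene lies at chr3:94167759-94253662 and HIF1A at chr1:190625436-190673926 in the same annotation.

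EGLN1, the main oxygen sensor among the prolyl hydroxylases, rose in both steps from a low level. It was at 1.06, 1.06 and 0.789 FPKM in IEC2, 2.22, 2.54 and 2.28 in IEC4, 4.09, 4.48 and 3.89 in IEC12 and 1.22, 2.06 and 1.75 in AOC. The 3 stages did not overlap, and the change over the induction was 1.39 (SE 0.16, adjusted p = 0.000127); its second step (0.0112) was not called without IEC12 replicate B (0.0531). EGLN3, a hydroxylase that HIF itself raises, was at 227, 195 and 222 FPKM in IEC2, 292, 290.1 and 239.7 in IEC4, 35.8, 50.6 and 62.8 in IEC12 and 0, 0.0378 and 0 in AOC. It was high in IEC2 and IEC4, lower in every IEC12 library and at or near 0 in AOC. From IEC4 to IEC12 it fell by 2.47 on the log2 scale (SE 0.19, adjusted p = 2.63e-05).

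**Figure D4:**
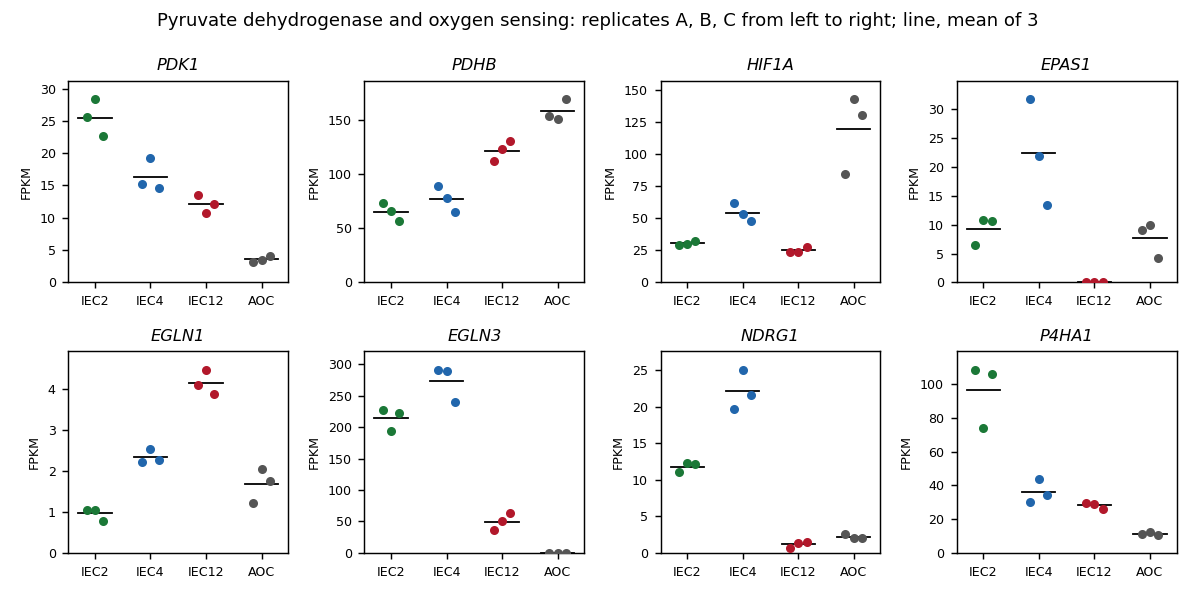
FPKM (y axis, linear from 0) of PDK1, PDHB, HIF1A, EPAS1, EGLN1, EGLN3, NDRG1 and P4HA1 in each library of IEC2, IEC4, IEC12 and AOC (x axis); points are replicates A, B and C from left to right and the line is their mean. EPAS1, EGLN3 and NDRG1 are high in IEC2 and IEC4 and low in IEC12, PDHB and EGLN1 rise over the induction, and P4HA1 falls between IEC2 and IEC4.

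Of the 5 hypoxia target genes found, ANKRD37 and P4HA1 fell in the first step, BNIP3L and NDRG1 rose in it, and NDRG1 fell in the second. NDRG1, a stress-responsive gene that hypoxia raises, was at 11.1, 12.3 and 12.1 FPKM in IEC2, 19.7, 25.1 and 21.6 in IEC4, 0.650, 1.31 and 1.52 in IEC12 and 2.64, 1.98 and 1.99 in AOC. The stages did not overlap, with IEC4 the highest and IEC12 the lowest of the 4 groups. Its change was 0.85 in the first step (SE 0.19, adjusted p = 0.00733) and -3.44 in the second (SE 0.19, adjusted p = 4.88e-06). P4HA1, a subunit of the collagen prolyl hydroxylase, was at 109, 73.9 and 106 FPKM in IEC2, 30.3, 43.7 and 34.6 in IEC4, 29.5, 28.8 and 26.3 in IEC12 and 11.4, 12.3 and 10.3 in AOC. Its fall took place before IEC4 (-1.38, SE 0.18, adjusted p = 0.000401), and the later step was not called (adjusted p = 0.164, and 0.0419 with equal totals). ANKRD37 was low, at 1.08, 1.59 and 3.67 FPKM in IEC2, 0.142, 0.721 and 0.463 in IEC4, 0.574, 0.784 and 0.502 in IEC12 and 0.214, 0.247 and 0.415 in AOC. Every IEC2 library lay above the others, and the fall to IEC4 (-1.04, SE 0.29, adjusted p = 0.0191) was not called without IEC4 replicate A (0.0727). BNIP3L, a receptor of mitophagy, lay between 51.4 and 104 FPKM, and its rise to IEC4 was 0.80 (SE 0.13, adjusted p = 0.00127). Its change from IEC4 to IEC12 was -0.35 (SE 0.13, adjusted p = 0.0541), and it was called lower with equal totals (0.0236, and 0.0276 without mitochondrial genes) and without IEC4 replicate C or IEC12 replicate C (0.037 and 0.0283). P4HA2 lay between 4.53 and 11.9 FPKM and was not called between stages (adjusted p from 0.0826 to 0.402, with 0.0441 from IEC4 to IEC12 under equal totals).

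Replicate A of IEC12 stood apart. It was the lowest of the 3 IEC12 libraries in 21 of the 31 tested genes, as it was in 56.6% of all genes tested, and its median log2 difference from the mean of replicates B and C was -0.44 over the 31 genes and -0.15 over all genes. It also had the largest share of mitochondrial transcripts, and the share of the glycolytic enzymes in IEC12 ran in the opposite order to it. Without this library, 19 genes fell and 3 rose from IEC4 to IEC12, with a median log2 fold change of -0.74, and 19 fell and 3 rose from IEC2 to IEC12, with a median of -0.99. The mean FPKM in IEC2 was 6.58 times that of replicates B and C for GAPDH and 7.44 times for ALDOA. In IEC4, replicate C was the lowest in 23 of the 31 genes, against 35.4% of all genes tested, and it held the highest sum of the epithelial markers (1434 FPKM) and the highest mitochondrial share (7.10%) of its group. The part of these differences between libraries in the results was not tested beyond leaving the libraries out.

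The comparison with AOC set the stages beside cells of endothelial identity. From IEC2 to AOC, 23 of 32 tested genes were lower and 4 higher, against 37.1% and 26.7% of all genes, with a median log2 fold change of -1.78 over the 32 genes and -0.20 over all genes. All 14 tested enzymes were lower in AOC than in IEC2, although HK1 lost its call after median-of-ratios scaling (adjusted p = 0.0666) and without AOC replicate B or C or IEC2 replicate B or C (0.0695, 0.117, 0.0867 and 0.149), and with no filter (0.0707). Between IEC12 and AOC, 13 genes were lower in AOC and 7 higher, against 36.2% and 22.4% of all genes, with a median log2 fold change of -0.35 over the 32 genes and -0.21 over all genes. After median-of-ratios scaling, 11 were lower and 8 higher, the medians were -0.12 and -0.01, and 51.1% of all calls were towards higher values, against 38.2%. For AOC against IEC2, 31.1% of all calls were towards higher values with equal totals, against 41.9%, and the medians were -2.06 and -0.45. Both comparisons use the same AOC libraries.

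Against IEC12 the enzymes differed in direction. Of the 14 tested, 6 were lower in AOC than in IEC12 (HK2, PFKM, PGK1, PGAM1, ENO1 and ENO2), HK1 and ALDOC were higher, and 6 were not called. Over all genes tested, 36.2% were lower in AOC and 22.4% higher. The share of lower enzymes, 42.9%, was thus near that of all genes. The call of ENO1 was lost after median-of-ratios scaling (adjusted p = 0.0988) and without AOC replicate C or IEC12 replicate B or C (0.0942, 0.107 and 0.103), with no filter (0.0587) and with only these groups in the fit (0.0923), and that of PGK1 after median-of-ratios scaling (0.621). Without IEC12 replicate A the difference was -1.12 for ENO1, against -0.73, and 0.68 for ALDOC, against 1.03. Among those not called, the log2 difference of AOC from IEC12 was -0.06 for GAPDH (SE 0.15), -0.15 for ALDOA (SE 0.30) and -0.14 for GPI (SE 0.30). The sign of these 3 differences turned after median-of-ratios scaling, to 0.22, 0.13 and 0.13. Without IEC12 replicate A, 19 genes were lower in AOC and 6 higher, and PFKL, PFKP, ALDOA, GPI and PKM were then called lower, at adjusted p from 0.00396 to 0.0275. LDHA was lower in AOC than in IEC12 (-1.31, SE 0.16, adjusted p = 1.9e-05), and so was PDK1 (-1.52, SE 0.15, adjusted p = 5.14e-06). HIF1A was higher in AOC (2.17, SE 0.18, adjusted p = 9.79e-07), as were EPAS1 (2.97, SE 0.33, adjusted p = 1.04e-05) and PDK4 (2.32, SE 0.40, adjusted p = 0.000356).

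Other genes of the same pathways were counted from IEC2 to IEC12, where 19.3% of all genes were called lower and 24.2% higher, with a median log2 fold change of 0.03. Among other HIF targets, 20 of 31 tested fell and 1 rose, with a median log2 fold change of -0.75. The 3 largest changes of that list were those of ADM, which encodes the vessel-dilating peptide adrenomedullin (-4.29, SE 0.34, adjusted p = 1.44e-05), DDIT4, an inhibitor of mTOR signalling (-3.97, SE 0.43, adjusted p = 9.7e-05), and BHLHE40, a transcriptional repressor (-3.89, SE 0.33, adjusted p = 2.33e-05). Of 12 tested isozymes, transporters and regulators of glycolysis outside the 40 genes, 5 rose and 3 fell, with a median of 0.56. Among them, ENO3, the muscle enolase, rose by 2.50 (SE 0.28, adjusted p = 0.000119) to 5.50, 12.5 and 13.0 FPKM in IEC12, from 0.909, 0.750 and 1.03 in IEC2. BPGM, which makes 2,3-bisphosphoglycerate, rose by 1.55 (SE 0.26, adjusted p = 0.00116), and PGAM2, the muscle mutase, fell by 1.64 on the log2 scale (SE 0.27, adjusted p = 0.00103).

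In the list of the citric acid cycle, which also held the cytosolic MDH1, 5 of 18 tested genes were higher and 3 lower. These shares were near those of all genes (24.2% and 19.3%), and the median was -0.21. MDH1, the malate dehydrogenase of the cytosol and so not an enzyme of the cycle itself, rose by 1.20 (SE 0.14, adjusted p = 0.000168). SUCLA2, a subunit of succinyl-CoA synthetase, rose by 1.09 (SE 0.11, adjusted p = 6.59e-05). IDH2, the mitochondrial NADP-dependent isocitrate dehydrogenase, fell by 1.29 on the log2 scale (SE 0.35, adjusted p = 0.0152, and 0.0565 without IEC2 replicate B), or by 0.80 without IEC12 replicate A. Of 8 tested genes that govern the entry of pyruvate, 2 rose and 2 fell, again near the shares of all genes. DLD, the third component of pyruvate dehydrogenase, rose by 1.12 (SE 0.12, adjusted p = 9.68e-05), while PC, pyruvate carboxylase, fell by 1.48 (SE 0.41, adjusted p = 0.0162, and 0.0502 or 0.063 without IEC2 replicate B or C) and PDHX by 0.63 (SE 0.14, adjusted p = 0.00569) on the same scale. In the pentose phosphate pathway, 1 of 5 tested genes was called, RPIA, which rose by 1.09 (SE 0.16, adjusted p = 0.000534). Among 4 tested partners and regulators of HIF, ARNT2 alone was called (0.63, SE 0.17, adjusted p = 0.0155, and 0.0878 with equal totals, 0.0508 without IEC2 replicate C or 0.0659 without IEC12 replicate B).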

How the data were processed

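RNA was sequenced from 12 libraries on a HiSeq 2500, and the authors deposited 1 FPKM value per gene and library. According to the submitters' processing notes, reads were handled with Bowtie2 2.2.3, TopHat2 2.0.12 and Cufflinks 2.2.1 on the susScr11 build. No read numbers were used, so the depth and counting error are unknown, and FPKM follows the share of a library that its most abundant transcripts leave.

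Groups came from the sample labels. Genes that reached 1 FPKM in 3 or more libraries were tested with limma 3.58.1 in R 4.3.3 on log2(FPKM + 1), with a variance trend, in 1 fit of the 9 IEC libraries for the stages and 1 of all 12 for AOC. The script was tested on simulated data. Alternatives were the pseudocount, no filter, only the groups compared, a replicate block, no variance trend, 3 scalings, stricter limits and leaving out each library. Single-library values were named for genes called with an absolute log2 fold change of at least 1 between stages and for GAPDH, HIF1A and EPAS1, and up to 3 called genes of each other pathway list by size of change. The values of a few other genes of the set are given as well, and those were chosen after their values were seen. The genes and lists were chosen with earlier results of these data known. Positions are from RefSeq for Sscrofa11.1, matched by symbol for 34 of 35 genes. Promoter and protein sequences were not used here.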

Additional observations from a re-analysis of the deposited data

How the results depend on the processing

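No call of a single gene turned its direction under any alternative run. Of the differences that were not called, some changed sign. After median-of-ratios scaling these were PFKL (-0.067) and PDHB (-0.010) for IEC4 against IEC2, PDHA1 (0.19) for AOC against IEC2, and GPI (0.13), ALDOA (0.13), GAPDH (0.22), PDHA1 (0.013) and BNIP3L (0.0058) for AOC against IEC12. With equal totals they were PDHA1 (-0.070) for IEC12 against IEC2 and BNIP3L (-0.15, and -0.083 without mitochondrial genes) for AOC against IEC2. When single libraries were left out, the log2 fold change ranged for AOC against IEC12 from -0.57 to 0.20 in ALDOA, -0.21 to 0.074 in GAPDH, -0.58 to 0.16 in GPI and -1.28 to 0.32 in PFKP, for AOC against IEC2 from -0.48 to 0.059 in EPAS1, for IEC12 against IEC2 from -0.28 to 0.079 in PFKFB4, and for IEC4 against IEC2 from -0.065 to 0.45 in PFKFB3, -0.042 to 0.35 in PFKL and -0.69 to 0.0098 in PFKP.

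Without the filter, 4 genes were lower in IEC4 than in IEC2. With a log2 fold change of at least 1 required, 1 gene was higher and 5 lower in IEC4 against IEC2, 0 were higher in IEC12 against IEC4, 1 was higher in IEC12 against IEC2, and 8 were lower in AOC against IEC12. With the thresholds that the study used for iPS cells against AOC (p and adjusted p below 0.001, a log2 change beyond 3), 0 genes were higher in any comparison. Lower were 0, 2, 4, 3 and 1 in IEC4 against IEC2, IEC12 against IEC4, IEC12 against IEC2, AOC against IEC2 and AOC against IEC12. Leaving out single libraries gave 4 to 7 higher and 2 to 11 lower genes in IEC4 against IEC2, 2 to 3 and 16 to 22 in IEC12 against IEC4, 2 to 3 and 18 to 20 in IEC12 against IEC2, 3 to 4 and 20 to 23 in AOC against IEC2, and 5 to 8 and 12 to 19 in AOC against IEC12. The cause was not tested.

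Whether the replicate letters pair the libraries was not settled. Correlations between same-lettered deviations ran from -0.514 to 0.246, and those between different letters were not set beside them. The lowest value was that of AOC against IEC12, replicate C. For IEC12 against IEC2 they were 0.246, 0.022 and 0.201 in replicates A, B and C. They ran from -0.073 to 0.058 for IEC4 against IEC2 and from -0.179 to 0.025 for IEC12 against IEC4. With the replicate block, 6 genes were higher and 9 lower in IEC4 against IEC2, 3 and 20 in IEC12 against IEC4 and in IEC12 against IEC2, 4 and 23 in AOC against IEC2, and 7 and 13 in AOC against IEC12. The block ended the calls of ALDOC (adjusted p = 0.0564) and PDHA1 (0.0683) in IEC4 against IEC2 and of PDHB (0.0512) in AOC against IEC12, and P4HA2 was then called lower in IEC12 against IEC4 (0.0294) and higher in AOC against IEC12 (0.0418). The depth of the libraries is unknown, so that the counting error of low values such as those of ANKRD37 and PFKFB3 could not be given. Single cells were not resolved, and 3 libraries a group limit the precision of every value.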
